A study of Mus musculus with 2 samples.

Results

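The nuclear genes for subunits of the mitochondrial respiratory chain and ATP synthase were followed along the mural cells of mouse brain vessels, from smooth muscle-type cells to pericytes. The members were taken by gene symbol: the Nduf a, b, c, s and v series (complex I), Sdha to Sdhd (complex II), the Uqcr genes (complex III), Cox5 to Cox8 (complex IV) and the Atp5 genes (complex V, the ATP synthase), leaving out Ndufa4, Ndufa4l2 and Cox7a1. This gave 78 of the 30905 genes in the files: 35 of complex I, 4 of complex II, 8 of complex III, 15 of complex IV and 16 of complex V. The rule reads symbols only, with no cutoff on a measured value, but it was set with earlier results of these data known. A filter on low counts left 74 of them for testing, and the other 4 are described with their isoforms.

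Complexes I and II pass electrons from NADH and succinate to ubiquinone, complex III passes them to cytochrome c, and complex IV reduces oxygen. Complexes I, III and IV pump protons across the inner mitochondrial membrane, and complex V uses the gradient to make ATP. Most subunits are encoded in the nucleus, while the mitochondrial genome encodes a small set of core subunits, so that complexes I, III, IV and V need transcripts from both genomes. Mural cells wrap the vessel wall, with contractile smooth muscle cells on arteries and arterioles and pericytes on capillaries.

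Single brain cells of male Dmp1Cre-COX8Dendra2 mice, aged 4 to 6 weeks, were profiled in 2 libraries, called replicate 1 and replicate 2. The strain combines a Cre named for Dmp1 with COX8Dendra2, a fluorescent reporter targeted to mitochondria, and both libraries hold cells sorted for the Dendra2 signal. By its title, the series asks how astrocytes act on the blood-brain barrier by passing on mitochondria. Both libraries belong to 1 group, with no unsorted or Dendra2-negative library, and the zones compared are cells of the same libraries. Nothing in the labels says that the libraries came from separate animals. The fit takes out the shift between the 2 libraries, so p-values measure only how zone differences vary between them, which may be technical. The reporter's name includes COX8, and any reads of the transgene were not told apart from those of the member Cox8a.

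Replicate 1 held 59026190 unique molecular identifiers (UMIs, 1 per captured transcript) in 8236 barcodes and replicate 2 held 26218090 in 7077. A barcode was kept as a cell if it had 500 or more genes, 1000 or more UMIs and less than 20% mitochondrially encoded UMIs, which left 7697 with a median of 6897 UMIs and 6427 with a median of 3016. The zones were cut by marker levels per 10000 UMIs. Cnn1-high cells had Acta2 at 80 or more and Cnn1 at 3 or more, and other cells with Acta2 at 80 or more were split at an Rgs5 level of 80 into Cnn1-low Rgs5-low and Rgs5-high cells. Transitional cells had Acta2 from 20 to 80 with Rgs5 at 80 or more, and pericytes had Vtn at 50 or more with Acta2 under 20. In this order the zones held 1181, 1577, 855, 740 and 2394 cells in replicate 1 and 127, 513, 156, 360 and 3298 in replicate 2. The median depth per cell fell along the same order, from 9702 to 4326.5 UMIs in replicate 1 and from 5110 to 2501 in replicate 2. The libraries shared 14 barcodes, and every count of members called below was the same without them.

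The zones were checked on markers that did not cut them. Myh11, the smooth muscle myosin heavy chain, was at 4282 and 4488 CPM (UMIs of the gene per 1000000 UMIs of the zone) in Cnn1-high cells of replicates 1 and 2 and at 139 and 71.6 CPM in pericytes. Kcnj8, a potassium channel subunit of pericytes, was at 24.4 and 9.35 CPM in Cnn1-high cells and 1424 and 890.1 CPM in pericytes. By these markers the end zones separate smooth muscle-type cells from pericytes in both libraries, and values of the zones between them are not given. The summed level of 6 endothelial markers lay between 0.196 and 4.05 per 10000 UMIs in the other zones and at 4.38 and 9.71 in pericytes. The 6 oligodendrocyte markers summed to between 0.75 and 4.95 over all zones. The 4 haemoglobin genes reached at most 2.47 in replicate 1, and 29.1 in transitional cells and 9.88 in pericytes of replicate 2. Without cells in which an endothelial, oligodendrocyte, immune, fibroblast, astrocyte or choroid list reached 20 per 10000 UMIs, 66 members were still higher in Cnn1-high cells than in pericytes, but the 6 called between Rgs5-high and transitional cells fell to 1. The part of the haemoglobin genes in the results was not tested.

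Replicate 2 also stood apart in transcripts of the stress and activity response. Its 8 immediate-early genes summed to between 96.0 and 209 per 10000 UMIs, highest in pericytes, against 2.18 to 3.33 in replicate 1. Its 5 heat-shock genes went from 28.7 in Cnn1-high cells to 109 in pericytes, while those of replicate 1 went from 18.1 to 8.59. The part of these genes in the results was not tested, and the medians of each library alone are given beside the main counts.

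The sequences before the start sites of 4 members are shown because their transcripts mark the range of the results. Ndufa13 had the highest difference between the ends of the zonation, Uqcrh the highest of complex III, Cox8a the highest CPM, and Cox6b2 was the 1 member called in the opposite direction. Each line gives the 250 bases before the RefSeq start (GRCm38.p6), 5′ to 3′ on the gene's own strand, all 4 genes lying on the minus strand. Capitals mark matches to the motifs spelled out after the sequences. The windows are chr8:69902021-69902270 for Ndufa13, chr4:116075071-116075320 for Uqcrh, chr19:7217617-7217866 for Cox8a and chr7:4753095-4753344 for Cox6b2.
Ndufa13: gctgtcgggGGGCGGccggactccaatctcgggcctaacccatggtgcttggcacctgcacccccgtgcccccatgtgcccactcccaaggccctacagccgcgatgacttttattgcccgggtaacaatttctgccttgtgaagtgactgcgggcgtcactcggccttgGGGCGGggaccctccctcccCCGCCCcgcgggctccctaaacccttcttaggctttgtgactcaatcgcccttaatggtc
Uqcrh: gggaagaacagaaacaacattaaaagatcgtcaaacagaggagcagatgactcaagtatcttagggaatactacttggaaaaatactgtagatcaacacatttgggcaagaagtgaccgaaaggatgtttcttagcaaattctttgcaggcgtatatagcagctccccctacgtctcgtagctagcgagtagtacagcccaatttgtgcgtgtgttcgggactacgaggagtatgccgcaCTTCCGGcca
Cox8a: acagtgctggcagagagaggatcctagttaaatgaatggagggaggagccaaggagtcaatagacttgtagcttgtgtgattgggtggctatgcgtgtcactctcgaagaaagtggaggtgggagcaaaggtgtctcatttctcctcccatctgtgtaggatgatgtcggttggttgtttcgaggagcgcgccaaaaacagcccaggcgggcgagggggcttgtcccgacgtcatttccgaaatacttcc
Cox6b2: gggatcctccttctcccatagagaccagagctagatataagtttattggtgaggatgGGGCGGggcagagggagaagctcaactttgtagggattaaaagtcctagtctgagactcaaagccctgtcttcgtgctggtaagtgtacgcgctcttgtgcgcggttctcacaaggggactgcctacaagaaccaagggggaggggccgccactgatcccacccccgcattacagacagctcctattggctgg

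Short motifs of 4 factors known from respiratory chain promoters were searched on both strands of these windows, none of them containing another. Of 78 members, 64 had an entry in the RefSeq table. The NRF1 core TGCGCA was in 13 of 64 (20.3%), against 7.36% of 27025 genes with a window of the same length. A gene counted once, if any of its windows held the motif. The ETS-type site CCGGAAG was in 12 (18.8%, against 7.83%), the YY1 motif AAGATGG in 1 (1.56%, against 5.18%), and the SP1 box GGGCGG in 23 (35.9%, against 35.4%). Among the printed sequences, Uqcrh held an ETS match at -10 from the start, Ndufa13 held SP1 matches at -241, -80 and -60, Cox6b2 held 1 at -193, and Cox8a held none of the 4. These are letter matches in the window and no more, and 27 of the 64 members held none.

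The members together took a larger share of the transcripts of smooth muscle-type cells than of pericytes. In replicate 1 they summed to 293 per 10000 UMIs in Cnn1-high cells, 296 in Cnn1-low Rgs5-low cells, 285 in Rgs5-high cells, 250.3 in transitional cells and 224 in pericytes. In replicate 2 the same sums were 291, 294, 285, 240.1 and 207. The 3 zones with Acta2 at 80 or more lay close together in both libraries, and transitional cells and then pericytes lay below them. The level of pericytes was 76.6% of that of Cnn1-high cells in replicate 1 and 71.3% in replicate 2. Single cells spread widely around these sums: from the lower to the upper quartile, cells of replicate 1 ran from 256 to 327 in the Cnn1-high zone and from 185 to 256 in the pericyte zone. A cell held a median of 292 member UMIs in the Cnn1-high zone and 97 in the pericyte zone of replicate 1, and 148 and 52 in replicate 2. These are shares of the UMIs captured per zone, not amounts of RNA per cell.

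**Figure D1:**
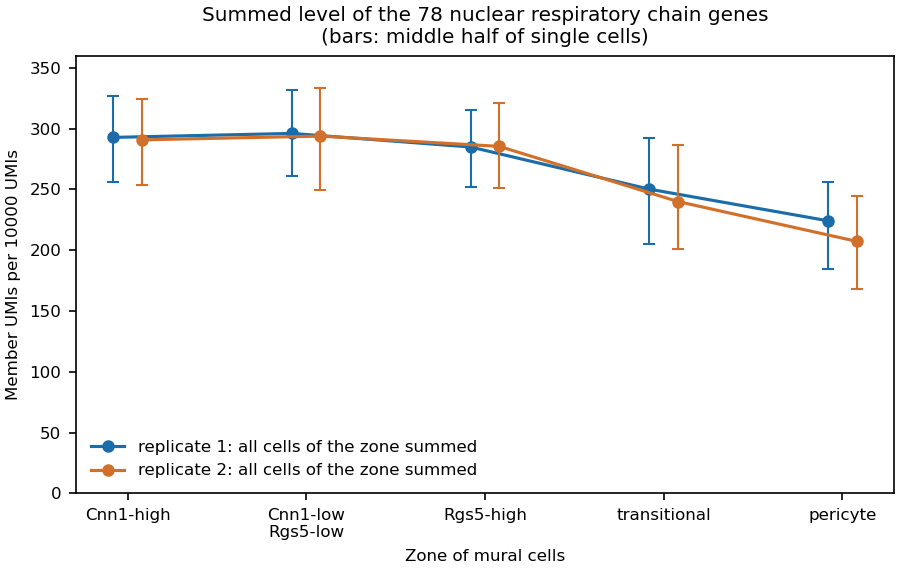
Summed UMIs of the 78 members per 10000 UMIs (vertical axis) in the 5 zones (horizontal axis) of replicate 1 (blue) and replicate 2 (orange), with points for all cells of a zone summed and bars from the lower to the upper quartile of its single cells. Both lines lie between 285 and 296 over the 3 smooth muscle-type zones and end at 224 and 207 in pericytes.

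Within the cells of the zones, the same rise was seen in narrower steps of Acta2. Acta2 also cut the zones, so these bins divide the same cells more finely and give no separate support. Cells in no zone are left out here, so that the bins under 20 hold pericytes and those from 20 to 80 hold transitional cells. In replicate 1 the members took 223 per 10000 UMIs in cells with Acta2 under 5 per 10000, 261 between 40 and 80, 275 between 80 and 160, and 300.5 between 160 and 320. In replicate 2 these values were 207, 257, 278 and 311. The rise was not even, since cells with Acta2 of 20 to 40 (228 in replicate 1 and 216 in replicate 2) lay below those of 10 to 20 (239 and 230.2). Contractile and mitochondrially encoded transcripts were then taken out of the total. The level rose from 237 in cells with Acta2 under 5 to 366 in those between 160 and 320 in replicate 1. In replicate 2 it rose from 216 to 359. The contractile list holds Acta2 itself, so the total shrinks most where Acta2 is high. Part of the steeper rise is therefore built in.

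Cnn1-high cells were compared with pericytes to ask how the subunits differ between the ends of the zonation. Of 74 members tested, 66 were higher in Cnn1-high cells and 1 was lower (edgeR quasi-likelihood test on summed counts with library as a block, Benjamini-Hochberg adjusted p under 0.05 over 12346 genes). Over all genes tested, 21.2% were called higher and 20.9% lower. The members' median log2 difference was 0.76, while that of all genes was -0.06. Each library by itself gave a median of 0.82 (replicate 1) or 0.79 (replicate 2). In the libraries taken singly, 70 members were higher in both and 3 lower in both, against 33.6% and 42% of all genes.

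The size of these differences depended on how the zones were scaled to each other. The fit used trimmed-mean (TMM) factors, which ran from 0.843 to 1.28 over the 10 sums. Scaling to library size instead moved the median of all genes to -0.51, with 13% of genes called higher and 45.1% lower. The members then had a median of 0.34, with 45 higher and 5 lower. Among the lower members were Cox6b2, Ndufv3, Atp5s and, named for its value, Ndufb4. CPM carry library-size scaling, so that a member can lie lower in CPM and yet have a fitted difference near 0. On CPM, both Cnn1-high values lay above both pericyte values for 48 members and below both for 6. By the same count over all genes tested, 14% lay above and 48.4% below without overlap, where the edgeR test with TMM scaling called 21.2% and 20.9%.

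**Figure D2:**
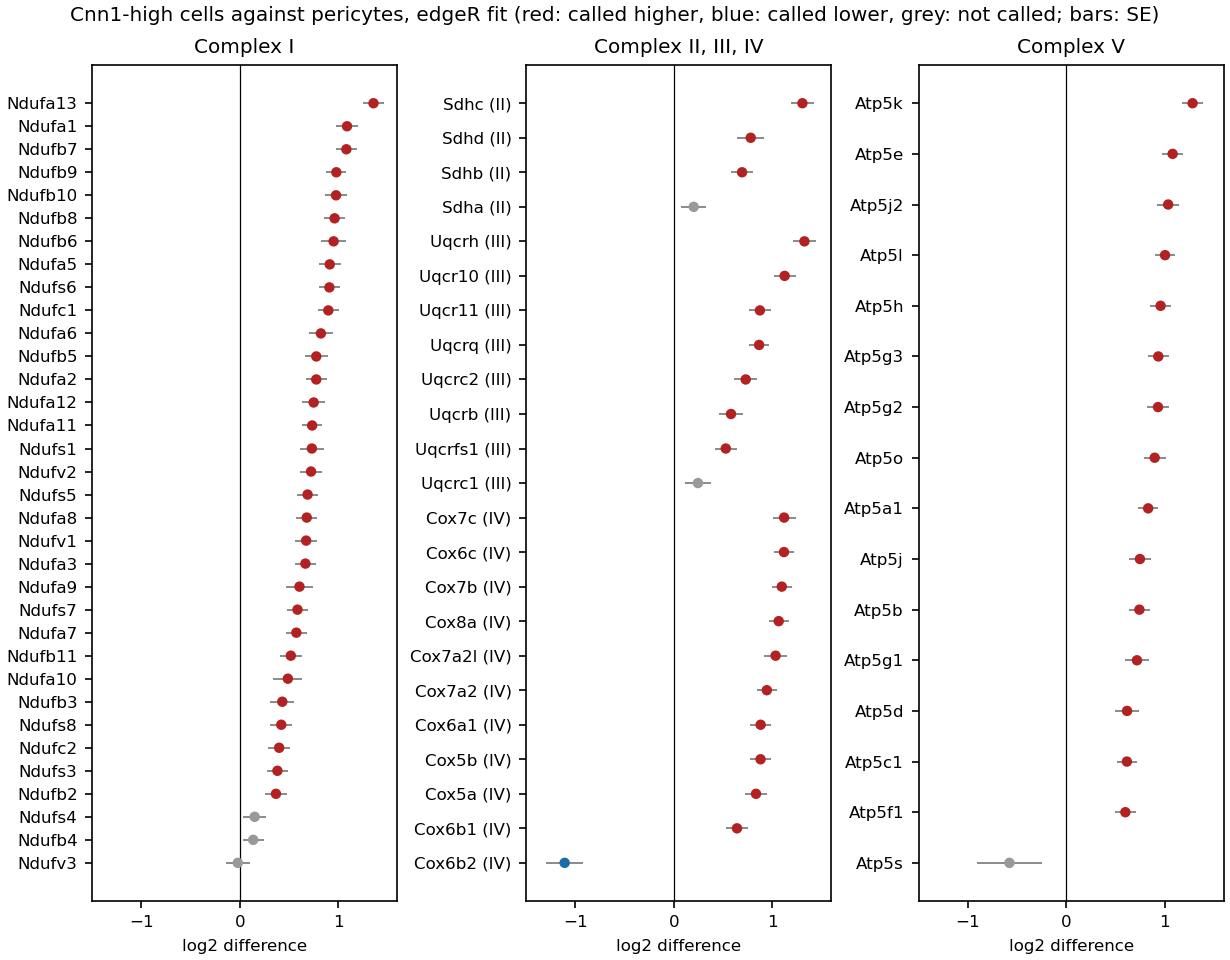
Fitted log2 differences (TMM scaling) of 73 of the 74 tested members between Cnn1-high cells and pericytes, ordered within complexes, with bars for 1 standard error; red members were called higher, the blue one lower and grey ones not called. The members run from -1.11 (Cox6b2) to 1.36 (Ndufa13). Of the 74 tested, 70 lie above 0, against 62 with library-size scaling, where Sdha (-0.23) and Uqcrc1 (-0.19) are among those below 0.

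Complex I, the NADH dehydrogenase, had 31 of 35 members higher and none lower, with a median of 0.69. This count and those of the other complexes below are with TMM scaling, where 21.2% of all genes were higher and 20.9% lower. With library-size scaling Ndufv3 and Ndufb4 of complex I were called lower, where 13% of all genes were higher and 45.1% lower. Ndufa13, an accessory subunit also known as GRIM-19, was at 898 and 956 CPM in Cnn1-high cells of replicates 1 and 2 and at 541 and 425 CPM in pericytes. The zones did not overlap, and the difference was 1.36 ± 0.11 on the log2 scale (SE, edgeR adjusted p = 4.31e-07). Ndufa1, a small membrane subunit, was higher by 1.09 ± 0.11 and Ndufb7, a subunit facing the intermembrane space, by 1.08 ± 0.10. The accessory subunits Ndufb9 (0.98), Ndufa2 (0.78) and Ndufa7 (0.57) were higher as well, but Ndufa7 was not called with library-size scaling (0.16).

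Some complex I subunits had differences near 0. Ndufv3, an accessory subunit, was at 177 and 149.7 CPM in Cnn1-high cells and 230.5 and 219 CPM in pericytes. On this scale both pericyte values lay above both Cnn1-high values. Its fitted difference was not called (-0.02 ± 0.12, or -0.45 with library-size scaling, edgeR adjusted p = 0.0076). Ndufs4 and Ndufb4, accessory subunits named for their values, were not called either (0.15 and 0.14). With library-size scaling Ndufb4 was called lower (-0.29, edgeR adjusted p = 0.0305). The 7 core subunits, those shared with the bacterial enzyme, had a median of 0.59 and the 28 accessory subunits 0.74, a split made after values were seen and not tested.

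Complex II, the succinate dehydrogenase, had 3 of 4 subunits higher. Sdhc, which anchors the enzyme in the membrane, was at 235 and 196 CPM in Cnn1-high cells and 139 and 97.0 CPM in pericytes, without overlap, with a difference of 1.31 ± 0.12 (edgeR adjusted p = 1.27e-06). The other anchor, Sdhd, was higher by 0.78 ± 0.14 and the iron-sulfur subunit Sdhb by 0.69 ± 0.11, Sdhb without a call under library-size scaling (0.27). The flavoprotein Sdha, which carries the active site, was not called (0.20 ± 0.13, edgeR adjusted p = 0.226). Its levels of 151 and 115 CPM in Cnn1-high cells and 191 and 118 CPM in pericytes overlapped between the zones, and the sign turned with library-size scaling (-0.23).

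Complex III had 7 of 8 members higher, with a median of 0.80. Uqcrh, the hinge protein next to cytochrome c1, was at 798 and 817 CPM in Cnn1-high cells and 401 and 464 CPM in pericytes, without overlap, a difference of 1.33 ± 0.12 (edgeR adjusted p = 8.51e-07). The small subunits Uqcr10 (1.13 ± 0.11) and Uqcr11 (0.87 ± 0.11) were higher too. So were Uqcrb (0.58 ± 0.12) and the Rieske iron-sulfur protein Uqcrfs1 (0.53 ± 0.11), both without a call under library-size scaling (0.16 and 0.10). The core protein Uqcrc1 was not called (0.24 ± 0.13, edgeR adjusted p = 0.151), and its sign turned with library-size scaling (-0.19). Uqcr11 and Uqcrb have near-identical 3′ ends in other annotated genes, so that their counts are less certain.

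Complex IV, cytochrome c oxidase, had 10 of 11 tested members higher and 1 lower, with a median of 0.94. Cox8a was at 1943 and 2022 CPM in Cnn1-high cells, 2116 and 2123 in Cnn1-low Rgs5-low cells, 2129 and 2184 in Rgs5-high cells, 1768 and 1737 in transitional cells, and 1307 and 1216 in pericytes. Both pericyte values lay below those of every other zone, and the difference between the ends was 1.07 ± 0.10 (edgeR adjusted p = 1.74e-06). The small subunits Cox7c (1.12 ± 0.12), Cox6c (1.12 ± 0.10) and Cox7a2 (0.94 ± 0.10) were higher too. Cox7c and Cox6c have near-identical 3′ ends in other annotated genes.

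The isoforms of subunit 6b went different ways. Cox6b1, the general isoform, was at 485 and 508 CPM in Cnn1-high cells and 413 and 438 CPM in pericytes, higher by 0.64 ± 0.11, without a call under library-size scaling (0.22). Cox6b2, known as the testis isoform, was at 17.1 and 14.0 CPM in Cnn1-high cells, 19.6 and 18.9 in Cnn1-low Rgs5-low cells, 18.8 and 12.1 in Rgs5-high cells, 18.7 and 20.6 in transitional cells, and 47.4 and 49.9 in pericytes. Pericytes lay above every other zone in both libraries, and the difference Cnn1-high minus pericytes was -1.11 ± 0.19 (edgeR adjusted p = 0.00032). The Cnn1-high value of replicate 2 rests on 9 UMIs and that of replicate 1 on 203. Replicate 1 alone gave -0.98 and replicate 2 alone -1.49. Cox6b2 has no overlapping exon and no near-identical copy in the annotation.

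Among the other isoform sets of complex IV, Cox6a1 (0.88 ± 0.11), Cox7b (1.10 ± 0.10) and Cox7a2l (1.03 ± 0.12) were higher in Cnn1-high cells. Cox7a2l is a relative of Cox7a2 that joins complexes III and IV. The muscle-type isoforms Cox6a2 and Cox8b had at most 2 UMIs in any zone of replicate 1 and 0 in replicate 2. The isoforms Cox7b2 and Cox8c had 0 UMIs in all 10 sums, where 3 counts correspond to between 0.220 and 4.68 CPM per sum, by counting error alone. These 4 genes failed the filter on low counts and were not tested.

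Complex V, the ATP synthase, had 15 of 16 members higher, with a median of 0.87. Atp5k, subunit e at the dimer interface, was at 471 and 667 CPM in Cnn1-high cells and 282 and 332 CPM in pericytes, without overlap, a difference of 1.28 ± 0.10 (edgeR adjusted p = 4.39e-07). Atp5e of the central stalk was higher by 1.08 ± 0.10, Atp5l (subunit g) by 1.00 ± 0.10, the peripheral stalk subunit Atp5h by 0.96 ± 0.10 and the catalytic subunit Atp5b by 0.74 ± 0.10. Atp5f1, subunit b of the peripheral stalk, was higher by 0.60 ± 0.10, but not called with library-size scaling (0.18).

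The genes Atp5g1, Atp5g2 and Atp5g3 encode the same mature c-ring subunit with different import signals. They were higher by 0.72 ± 0.12, 0.93 ± 0.12 and 0.94 ± 0.11. Near-identical 3′ ends in other annotated genes affect Atp5g1, Atp5g2, Atp5f1, Atp5h and Atp5l. The 1 member of complex V not called was Atp5s, a coupling factor, at 5.39 and 4.68 CPM in Cnn1-high cells and 11.5 and 8.08 CPM in pericytes (-0.58 ± 0.33, edgeR adjusted p = 0.183). The Cnn1-high value of replicate 2, 4.68 CPM, is the level of 3 counts in that sum. With library-size scaling Atp5s was called lower (-1.04, edgeR adjusted p = 0.0175).

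**Figure D3:**
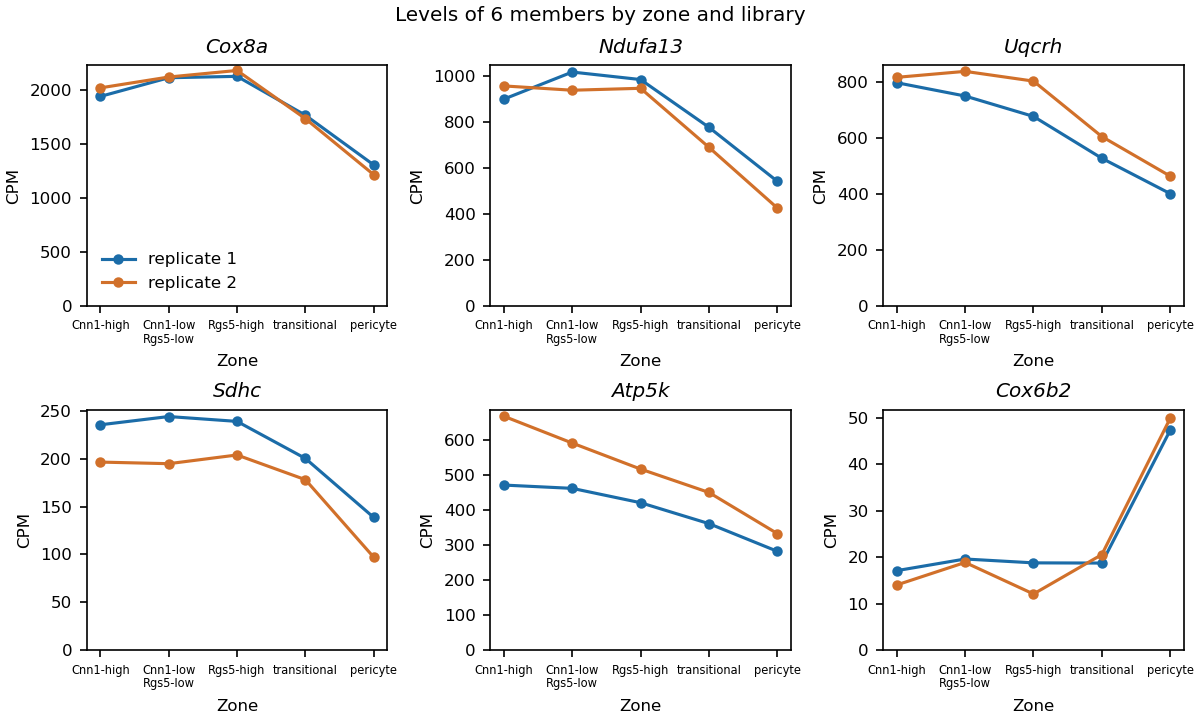
CPM (vertical axes, from 0) of Cox8a, Ndufa13, Uqcrh, Sdhc, Atp5k and Cox6b2 in the 5 zones (horizontal axes) of replicate 1 (blue) and replicate 2 (orange). The first 5 are lowest in pericytes in both libraries, while Cox6b2 (47.4 and 49.9 CPM) is highest there.

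Across members, CPM were lowest in pericytes for 54 of 74 in replicate 1 and 55 in replicate 2. They were highest in Cnn1-high cells for 29 and 24 members, in Cnn1-low Rgs5-low cells for 24 and 23, and in Rgs5-high cells for 11 and 22. The same counts over all genes are not given here. Between the end zones, 14% of all genes lay higher in CPM in Cnn1-high cells and 48.4% lower, without overlap. The members' UMIs were also divided differently among the complexes. Complex I took 33.8% of them in Cnn1-high cells and 36.6% in pericytes of replicate 1, and 32.3% and 35.4% in replicate 2. Complex IV took 24.1% and 21.6% in replicate 1, and 26.2% and 24.1% in replicate 2. Members with higher CPM and shorter transcripts had larger log2 differences between the ends (Spearman rho over 74 genes of 0.58 with mean CPM and -0.36 with transcript length, all from the same libraries). Over 11705 genes the rho with length was -0.11, and the rho with mean CPM was not computed. Mean CPM was taken over the same sums that give the differences, so these values are not independent of each other.

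Neighbouring zones were compared to place the difference along the zonation. Between Cnn1-high and Cnn1-low Rgs5-low cells no member was called by edgeR (1 at an unadjusted p under 0.05) or by DESeq2, where 1.58% of all genes were called higher and 1.87% lower. The members' differences ran from -0.30 to 0.26 with a median of 0.07, or -0.01 with library-size scaling. Between Cnn1-low Rgs5-low and Rgs5-high cells no member was called by edgeR (12 at an unadjusted p under 0.05, all higher in the former) or by DESeq2, against 2.11% higher and 2.32% lower of all genes. The median was 0.12, with 72 members above 0, or 0.03 with library-size scaling, with 51 above 0. With TMM scaling 58 members were higher and 1 lower in both libraries, against 33.8% and 26.5% of all genes.

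Rgs5-high cells were set against transitional cells, the step at which Acta2 drops below 80. Here 6 members were called higher and none lower, against 1.29% and 1.7% of all genes, with a median of 0.29. In both libraries 71 members were higher and none lower, against 28.3% and 32% of all genes. The 6 were Ndufa13 (0.51 ± 0.11), Uqcrh (0.49 ± 0.11), Uqcr10 (0.48 ± 0.11), Ndufb7 (0.44 ± 0.11), Cox8a (0.41 ± 0.10) and Cox6c (0.41 ± 0.10, named for its value), with edgeR adjusted p from 0.0258 to 0.0469. The count was 0 without the library block, 0 with library-size scaling (where 70 members still lay above 0), 0 with the mitochondrial limit at 10%, 1 without cells with markers of other cell types, 1 without the top 6% of doublet scores, 1 after thinning every cell to 2000 UMIs, 12 with DESeq2 and 13 without the filter on low counts. The 1 member called after thinning was not among the 6. With stricter zones 4 members were called, 3 of them among the 6. In CPM, Ndufa13 was at 983 and 945 in Rgs5-high cells and 776 and 689 in transitional cells, without overlap between the zones.

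Transitional cells were then set against pericytes. Of 74 members 24 were higher and 2 lower, against 11.5% and 8.03% of all genes, with a median of 0.28 (0.23 from replicate 1 and 0.32 from replicate 2, each by itself). Without the library block 2 were higher and 1 lower. With library-size scaling 9 members were higher and 3 lower, while 9.28% of all genes were higher and 12.2% lower. Complex V held 11 of the 24 with 16 members tested, and complex I held 4 with 35. Sdhc was higher by 0.83 ± 0.12 (edgeR adjusted p = 0.000193), Ndufa13 by 0.74 ± 0.11, Cox8a by 0.61 ± 0.10 and Atp5k by 0.53 ± 0.10.

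Cox6b2 was 1 of the 2 members lower in transitional cells than in pericytes (-1.21 ± 0.18, edgeR adjusted p = 0.000357). It was called under every alternative with a test, with differences from -1.44 to -1.12.

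**Figure D4:**
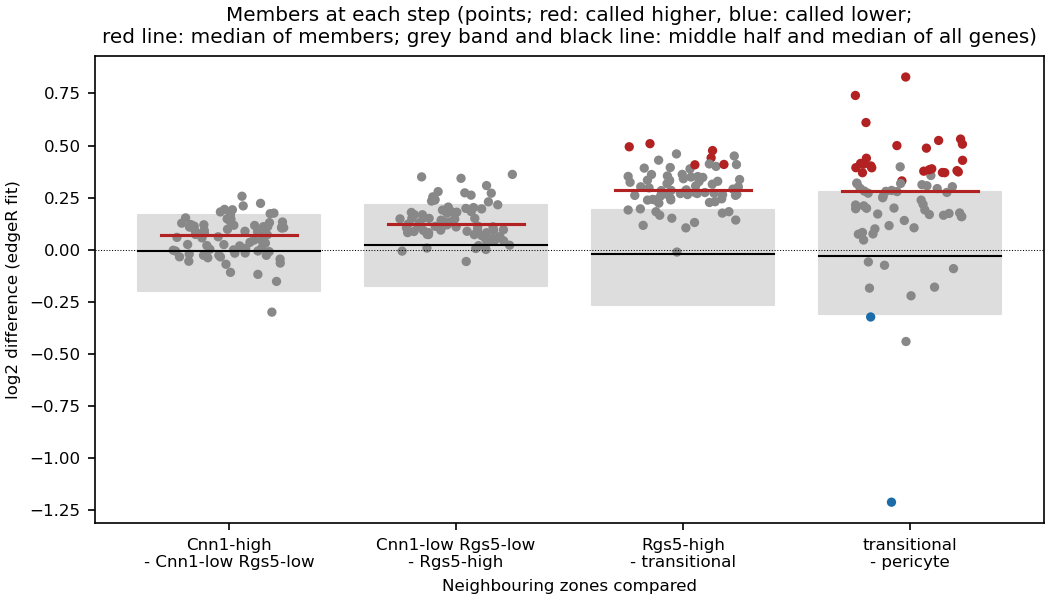
Fitted log2 differences (vertical axis, TMM scaling) of the 74 members at each of the 4 steps between neighbouring zones, with red points called higher, blue points called lower, a red line for the members' median, and a grey band and black line for the quartiles and median of all genes. The members' medians are 0.07, 0.12, 0.29 and 0.28, and with library-size scaling the first lies at -0.01.

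Whether the intermediate zones depart from the mean of their neighbours was also tested. Against the mean of Rgs5-high cells and pericytes, transitional cells had no member called by edgeR (1 higher and 3 lower at an unadjusted p under 0.05) or by DESeq2, with a median of -0.01, while 2.95% of all genes were called higher and 0.308% lower. Against the mean of Cnn1-high and Rgs5-high cells, Cnn1-low Rgs5-low cells had no member called by edgeR (0 at an unadjusted p under 0.05) or by DESeq2, with a median of 0.04, against 0.0729% and 0% of all genes. The members' median SE was 0.10 and 0.09 in these comparisons, so that small departures of single members may not be detectable. In both libraries, 14 members lay above the neighbours' mean in transitional cells and 30 below, against 33.3% and 27.1% of all genes. In Cnn1-low Rgs5-low cells 45 lay above and 8 below in both libraries, against 33.7% and 19.5%. These counts were not tested.

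The transcripts of the mitochondrial genome had a lower share left in pericytes than the nuclear members. The 13 mitochondrially encoded mRNAs, whose UMIs count toward the limit on kept cells, summed to 1246, 1080, 917, 819 and 581 per 10000 UMIs along the zones in replicate 1 and to 817, 731, 656, 559 and 389 in replicate 2. All 13 were higher in Cnn1-high cells than in pericytes under both scalings, against 21.2% of all genes, or 13% with library-size scaling. Their median was 1.41. They ran from 1.03 for mt-Nd6, a complex I subunit, to 1.90 for mt-Co1, the catalytic subunit of complex IV. The ratio of nuclear member UMIs to mitochondrially encoded UMIs went from 0.235 in Cnn1-high cells to 0.386 in pericytes of replicate 1 and from 0.356 to 0.534 in replicate 2.

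Chain genes outside the rule had a mixed course between the ends. Cox4i1 (0.99 ± 0.10), cytochrome c1 (Cyc1, 0.78 ± 0.11), cytochrome c (Cycs, 0.82 ± 0.12), the acyl carrier subunit Ndufab1 (0.86 ± 0.12) and the ATP synthase inhibitor Atpif1 (1.28 ± 0.11) were higher in Cnn1-high cells. Ndufa4, a subunit now assigned to complex IV, was higher by 4.27 ± 0.14, while its relative Ndufa4l2 (-2.65 ± 0.12) and Cox4i2 (-2.79 ± 0.13), the alternative isoform of Cox4i1, were lower. Cox7a1 was not called (-0.13 ± 0.25). Of these 9 genes, 6 were called higher and 2 lower, under both scalings. The shares of all genes were 21.2% higher and 20.9% lower with TMM scaling, and 13% and 45.1% with library-size scaling.

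The assembly factors of the complexes were mostly not called. Of 47 tested, 9 were higher and 1 lower, with a median of 0.20, against 21.2% and 20.9% of all genes. With library-size scaling 3 were higher and 9 lower, against 13% and 45.1% of all genes. In pericytes of replicates 1 and 2 they summed to 99.1% and 95.8% of the Cnn1-high level. Cox17, a copper chaperone of complex IV (1.11 ± 0.11), and Fmc1, an assembly factor of complex V (1.10 ± 0.12), were higher, and Sdhaf4, an assembly factor of complex II, was lower (-0.67 ± 0.19).

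Of 18 genes of the tricarboxylic acid cycle, which supplies electrons to the chain, 14 were higher with TMM scaling, with a median of 0.65. The isocitrate dehydrogenases Idh2 (1.90 ± 0.13) and Idh3a (1.09 ± 0.15) were among them, while Suclg2 (-0.46 ± 0.19) and Pdhb (0.09 ± 0.13) were not called. With library-size scaling 6 were higher and 2 lower. Beside this list and the next, 21.2% of all genes were higher and 20.9% lower, or 13% and 45.1% with library-size scaling. Of 12 regulators of mitochondrial biogenesis, 3 were higher and 2 lower, with a median of 0.12, and 0 were higher and 4 lower with library-size scaling. Among these, Esrra was higher (0.62 ± 0.16) and Gabpa lower (-0.55 ± 0.17) with TMM scaling, and Nrf1 (-0.38 ± 0.19) and the coactivator Ppargc1a (1.35 ± 0.61) were not called.

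Other large complexes give the scale of these shifts. Over all genes, 21.2% were called higher and 20.9% lower with TMM scaling, or 13% and 45.1% with library-size scaling. All 76 tested genes of the cytosolic ribosome were higher in Cnn1-high cells, 73 of them called with library-size scaling, with a median of 1.04. In pericytes they summed to 58.4% and 72.5% of the Cnn1-high level in replicates 1 and 2. Of 77 tested mitochondrial ribosome genes 30 were higher and none lower, with a median of 0.27, against 8 higher and 16 lower with library-size scaling. Of 38 proteasome genes 15 were higher and 2 lower, with a median of 0.24, against 0 higher and 9 lower with library-size scaling. The members' median of 0.76 lay between that of the cytosolic ribosome and those of the mitochondrial ribosome and the proteasome, and these medians were not tested against each other. By summed share in pericytes, the members (76.6% and 71.3%) lay above the cytosolic ribosome in replicate 1 but slightly below it in replicate 2.

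**Figure D5:**
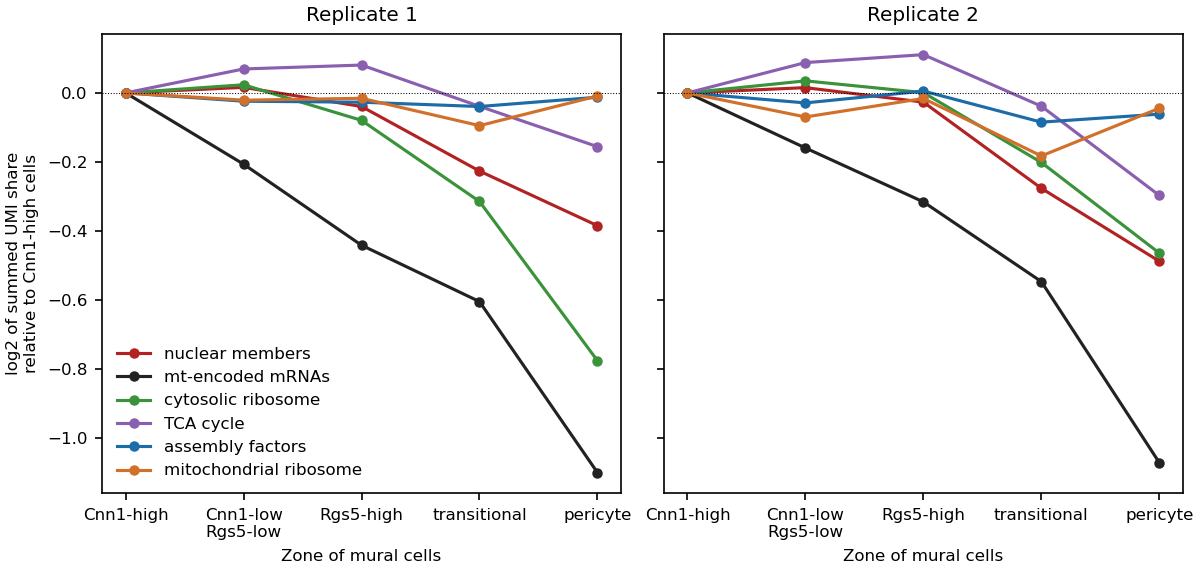
Summed UMI share of 6 gene lists relative to Cnn1-high cells on a log2 axis, by zone, for replicate 1 (left) and replicate 2 (right). In pericytes the mitochondrially encoded mRNAs lie lowest (46.6% and 47.6% of the Cnn1-high level), and the members (76.6% and 71.3%) lie below the assembly factors (99.1% and 95.8%).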

How the data were processed

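Single-cell 3′ RNA libraries (10x Genomics, version 3.1 chemistry, per the labels' protocols) of 2 samples in 1 group were analysed. The deposited values are raw UMI counts per gene and barcode. The submitters' processing notes name CASAVA 1.8, Cell Ranger 3.1.0 and Seurat 2.3.4, and no build of the genome is named in the sources used here. Of 30905 gene identifiers, 30843 were found in GENCODE M21, which gave overlaps and 3′ copies.

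The members, gene lists and zones were chosen with earlier results of these data known. Counts were summed per zone and library (10 sums) and fitted over all genes with edgeR 4.0.16 in R 4.3.3 (TMM, filterByExpr, quasi-likelihood test, 4 residual degrees of freedom, Benjamini-Hochberg adjustment, threshold 0.05). Library entered as a block because the zones of a library come from 1 preparation, and their deviations correlated within libraries (0.429 to 0.662). Named members are, per complex, the 4 with the highest mean CPM, the 2 highest and 2 lowest differences between the ends, any called against the majority, fixed isoform sets, and at each step up to 5 called members by adjusted p.

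Scrublet in scanpy 1.11.5 marked 202 of the 7697 cells of replicate 1 as doublets but 1 of the 6427 cells of replicate 2, and so had not worked in the latter. No cells were removed on this ground, and the top 6% of scores were left out in 1 alternative. Intervals and floors cover counting error only. Depth per library is given with the results. Alternatives were DESeq2 1.42.0, other scalings, filters, zones and cells, and each library left out. Of the members, 1 is counted but not reported singly here.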

Additional observations from a re-analysis of the deposited data

How the results depend on the processing

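Between Cnn1-high cells and pericytes the number of members called higher ran from 45 (library-size scaling) to 66, and 5 members were lower with library-size scaling. The library block mattered for the steps: with no replicate block, 50 members were higher between the ends, 0 between Rgs5-high and transitional cells, and 2 higher and 1 lower between transitional cells and pericytes. Between Rgs5-high and transitional cells (6 higher) the count was 12 with DESeq2, 13 without a filter on low counts, 0 with library-size scaling, 0 with the mitochondrial limit at 10%, and 1 each after thinning, without the top 6% of doublet scores and without cells with markers of other cell types. The 1 called after thinning was not among the 6, and stricter zones called 4 members, 3 of them among the 6. Between transitional cells and pericytes (24 higher, 2 lower) the number higher was 9 with library-size scaling, 14 with stricter zones, 15 after thinning, 28 with DESeq2, 28 without mitochondrially encoded genes and 34 with the mitochondrial limit at 10%, and the number lower was 3 with library-size scaling and 1 without a filter, after thinning and with the mitochondrial limit at 10%. Among members named by the rule, the sign between the ends turned for Ndufv3 without a filter (0.0008). With library-size scaling it turned for Sdha (-0.23) and Uqcrc1 (-0.19). Of all 74 tested members, 70 lay above 0 with TMM scaling and 62 with library-size scaling. Ndufb4 (-0.29) was another that turned with library-size scaling. The causes were not tested.

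The alternative without cells high in immediate-early genes was not run, since it left fewer than 20 Cnn1-high cells in replicate 2. Leaving out a library leaves no residual degrees of freedom, so it gives values without tests.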
